A study of Mus musculus with 9 samples.

Results

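The guanylate-binding proteins were followed here as the probe sets whose only gene symbol in the platform annotation was Gbp2, Gbp3, Gbp4, Gbp5, Gbp6, Gbp7, Gbp8 or Gbp9. The rule found 8 probe sets of 45101 on the array, and they covered 5 of the 8 genes: Gbp2, Gbp6 and Gbp7 with a pair of probe sets each, and Gbp3 and Gbp8 with 1 each. Gbp4, Gbp5 and Gbp9 had no probe set of their own under this rule and were not analysed here, and 1 probe set annotated with several symbols that included a member was left out. Near-identical relatives may share probes, so each value belongs to its probe set and is uncertain as a measure of a single gene.

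Brain RNA of 9 adult BALB/c males, 3 per group, was hybridised to 1 array per mouse. The MC+HS mice had received BV-HSVtk, a vector made from an insect baculovirus, after membrane chromatography and high-speed centrifugation. The HS mice had received the same vector after high-speed centrifugation alone, and both vector groups were given 100000000 viral particles in 10 µL on each side of the striatum. The mock mice had received virus-free medium of Sf9 insect cells that had passed both MC+HS steps, so in HS against mock the vector and the purification change together and cannot be told apart. All groups were injected into the brain, and tissue around the injection site was taken 2 days later. The labels call the samples of a group biological replicates, and each group has n = 3 arrays except where 1 is named as omitted.

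Guanylate-binding proteins are large GTPases of the dynamin superfamily whose genes are switched on by interferons, most strongly by interferon gamma. In infected mouse cells the proteins collect on vacuoles and bacteria, break down the membranes around pathogens and help caspase-11, the product of Casp4, to respond to bacterial lipopolysaccharide. In the brain they are known as part of the interferon response of microglia, endothelium, astrocytes and entering leukocytes.

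Values are given as normalised log2 signals, that is log2(signal + 16) with each array's median moved to a common level, so that differences of dim probe sets are understated. Of the 45037 probe sets that are not controls, 28257 passed a filter on dim signal, and the median signal per array lay between 147 and 264 intensity units. HS replicate 1 stood apart: its median correlation with the other arrays across probe sets was 0.757, against 0.956 to 0.979 for the others, and its log2 signals spread by an SD of 1.32, against 1.61 to 1.70. Results that rest on this array are therefore given with and without it. Of the marker lists, all 6 neuronal genes and 6 of 7 striatal medium spiny neuron genes were measured, with summed signals of 44080 to 51670 (MC+HS), 32560 to 49530 (HS) and 46250 to 49120 (mock) for the neuronal list, and HS replicate 1 was the lowest array in both lists.

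In the RefSeq gene table of assembly GRCm38.p6 the family lies in 2 clusters. On chromosome 3 the protein-coding order is Gbp5, Gbp7, Gbp3, Gbp2b and Gbp2, and on chromosome 5 it is Gbp8, Gbp9, Gbp4, Gbp10 and Gbp6, with no other protein-coding gene between them in either cluster. RefSeq promoter windows, which run from 250 bases before the transcription start to 50 bases after it, were matched for Gbp2, Gbp3 and Gbp7. Gbp6 and Gbp8 had no window in the set used, so their promoters were not searched. They are shown because interferon acts on such genes through short promoter motifs. Capitals mark matches to the core of the interferon-stimulated response element, searched as GAAA, any 2 bases and GAAA on either strand, and to the gamma-activated sequence TTCNNNGAA, which reads the same on both strands.
Gbp2, chr3:142620413-142620712, plus strand, GRCm38.p6: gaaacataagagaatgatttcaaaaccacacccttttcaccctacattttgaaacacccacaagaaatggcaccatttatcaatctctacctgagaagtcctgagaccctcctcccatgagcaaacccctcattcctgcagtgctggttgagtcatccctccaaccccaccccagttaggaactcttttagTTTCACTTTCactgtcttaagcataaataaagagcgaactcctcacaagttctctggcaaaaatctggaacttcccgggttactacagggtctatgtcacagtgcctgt
Gbp3, chr3:142559794-142560093, plus strand, GRCm38.p6: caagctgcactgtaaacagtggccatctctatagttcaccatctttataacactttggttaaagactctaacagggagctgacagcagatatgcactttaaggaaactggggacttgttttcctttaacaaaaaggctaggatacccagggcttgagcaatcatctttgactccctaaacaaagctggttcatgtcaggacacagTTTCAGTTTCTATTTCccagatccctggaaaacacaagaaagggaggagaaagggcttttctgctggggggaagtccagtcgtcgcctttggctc
Gbp7, chr3:142530086-142530385, plus strand, GRCm38.p6: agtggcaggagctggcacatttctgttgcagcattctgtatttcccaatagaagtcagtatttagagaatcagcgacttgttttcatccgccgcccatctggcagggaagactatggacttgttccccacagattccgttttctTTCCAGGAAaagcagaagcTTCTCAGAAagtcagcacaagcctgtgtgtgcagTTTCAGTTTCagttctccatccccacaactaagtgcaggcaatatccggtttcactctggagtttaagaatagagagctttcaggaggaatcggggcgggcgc
Each of these windows held a response element core in its reverse orientation shortly before the start, at bases -59 to -50 for Gbp2, -45 to -36 and -39 to -30, overlapping, for Gbp3, and -53 to -44 for Gbp7. The core occurred in 3.44% of the 32851 mouse promoter windows in the table, and overlapping or repeated cores as in Gbp3 occurred in 0.225%. Gbp7 also carried 2 gamma-activated sequences, at bases -106 to -98 and -87 to -79. That motif occurred in 8.30% of windows, and both motifs occurred together in 0.454%. A second annotated start of Gbp3 had neither motif in its window. A match of letters is a description of the window and was not tested as a binding site.

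**Figure D1:**
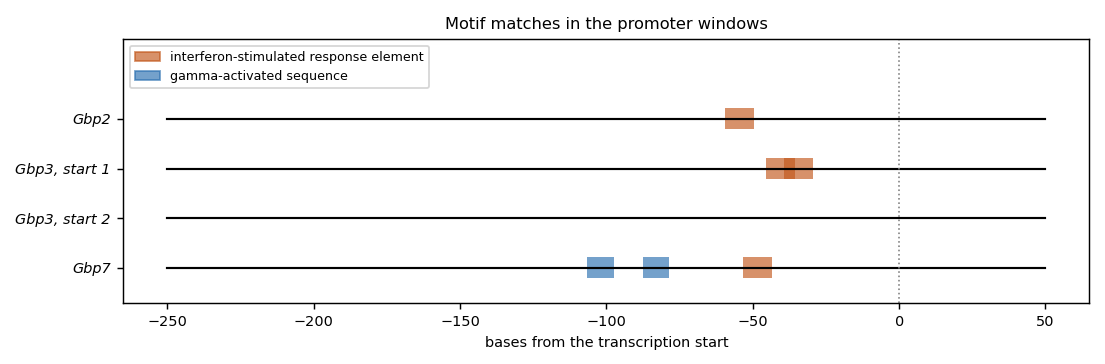
Motif matches in the RefSeq promoter windows of Gbp2, Gbp3 (both annotated starts) and Gbp7. The horizontal axis is the distance in bases from the transcription start, black lines are the windows, and coloured boxes are matches; all response element cores lie between bases -59 and -30.

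All 8 probe sets were higher in both vector groups than in mock, by 4.34-fold to 11.1-fold in MC+HS mice and 4.43-fold to 12.03-fold in HS mice on the log2(signal + 16) scale. With all 9 arrays 6 of the 8 passed the limma test at a Benjamini-Hochberg adjusted p under 0.05 in MC+HS against mock, where 0.556% of all probe sets tested were called higher, and 6 of 8 in HS against mock, where 0.747% were. The probe sets that passed were the same ones in both comparisons, namely both of Gbp2, both of Gbp6, 1 of Gbp7 and that of Gbp8. The probe set 1438676_at of Gbp6 and that of Gbp8 were dim on all 3 mock arrays and entered the test only through the vector arrays. The filter thus favoured a rise in both, and their calls are no independent support. Of the 6 probe sets above the 40th percentile on every mock array, 4 passed in each comparison. Without HS replicate 1 all 8 passed in both comparisons, against a background of 2.51% (MC+HS) and 2.97% (HS). The 2 comparisons share their mock arrays. Every MC+HS array lay above every mock array for all 8 probe sets (8.79% of all probe sets tested), and every HS array did so for 7 of 8 (4.65%), with Gbp3 the exception. In bulk tissue a larger number of cells that express a gene and more RNA per cell cannot be told apart.

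**Figure D2:**
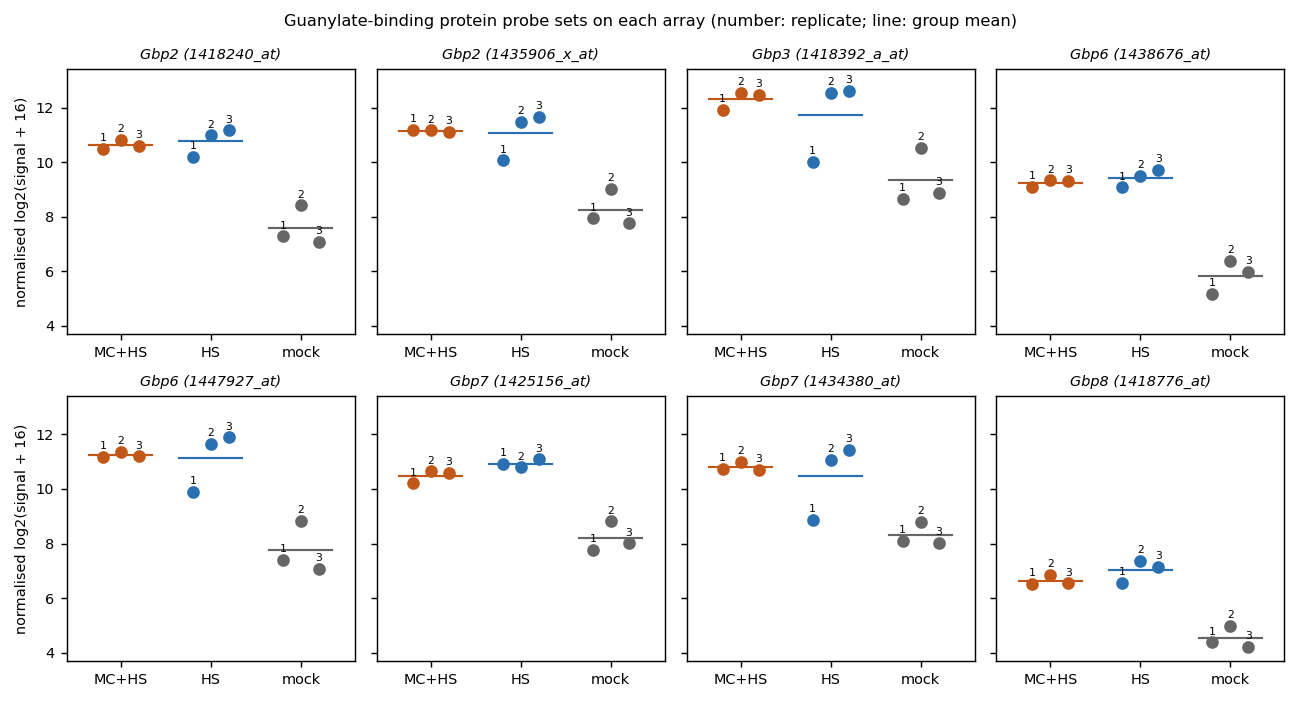
Normalised log2(signal + 16) of the 8 probe sets on each array, by group, with points numbered by replicate and lines at the group means. HS replicate 1 is the lowest HS array for 7 of 8 probe sets and mock replicate 2 the highest mock array for all 8. Over all probe sets tested HS replicate 1 departed from the mean of the other HS arrays by a median of -0.66. The 5th and 95th percentiles of that departure were -2.77 and 0.82, and the members lay inside this range, from -2.58 to -0.03.

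Gbp2 encodes a GTPase with a lipid anchor that is recruited to the vacuole of Toxoplasma in mouse cells. Its probe set 1418240_at read 10.49, 10.82 and 10.59 in the MC+HS mice, 10.18, 10.98 and 11.17 in the HS mice and 7.28, 8.41 and 7.08 in the mock mice. No vector array overlapped with mock, and mock replicate 2 stood more than 1 log2 unit above the other mock arrays. Gbp2 was 8.23-fold higher in MC+HS than in mock (log2 difference 3.04 ± 0.38, SE; limma adjusted p = 0.0138) and 9.09-fold higher in HS than in mock (3.18 ± 0.38, adjusted p = 0.00804). The second probe set, 1435906_x_at, read 11.18, 11.16 and 11.10 (MC+HS), 10.06, 11.48 and 11.65 (HS) and 7.93, 9.01 and 7.75 (mock), which gave differences of 2.92 ± 0.46 (limma adjusted p = 0.0336) and 2.83 ± 0.46 (adjusted p = 0.0303). Both Gbp2 probe sets rose by a similar amount in each vector group. With all other arrays kept, the HS call of 1418240_at was lost without mock replicate 1 (limma adjusted p = 0.0558), and its MC+HS call without any single MC+HS array, mock replicate 1 or mock replicate 3 (adjusted p from 0.0769 to 0.111). For 1435906_x_at the calls in both comparisons were lost without HS replicate 2, any single MC+HS array, mock replicate 1 or mock replicate 3, and the HS call also without HS replicate 3 (limma adjusted p from 0.0798 to 0.184 in HS and from 0.0555 to 0.200 in MC+HS).

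Gbp3 is the neighbour of Gbp7 and, like Gbp2, Gbp6, Gbp7 and Gbp9, has been seen at Toxoplasma vacuoles in mouse cells. Its probe set 1418392_a_at read 11.91, 12.55 and 12.47 in the MC+HS mice, 10.00, 12.54 and 12.61 in the HS mice and 8.64, 10.51 and 8.87 in the mock mice. HS replicate 1 lay below mock replicate 2, so the HS and mock groups overlapped, while MC+HS and mock did not. The difference was 2.97 ± 0.73 in MC+HS against mock (limma adjusted p = 0.211) and 2.38 ± 0.73 in HS against mock (adjusted p = 0.410), so Gbp3 did not pass in either comparison, although its MC+HS difference was 7.84-fold. Without HS replicate 1 the standard errors were 0.39 (MC+HS) and 0.43 (HS), and Gbp3 passed in both, 7.84-fold higher in MC+HS (limma adjusted p = 0.00131) and 9.41-fold higher in HS (adjusted p = 0.00134). Without mock replicate 2 the differences were 3.55 and 2.96 and did not pass (limma adjusted p = 0.125 and 0.252).

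Gbp6 is the last gene in the chromosome 5 order given above. Its probe set 1438676_at read 9.09, 9.33 and 9.32 in the MC+HS mice, 9.07, 9.49 and 9.72 in the HS mice and 5.16, 6.38 and 5.97 in the mock mice. The vector groups lay close together, and the gap to mock was more than 2 log2 units on every array. It was 10.6-fold higher in MC+HS (3.41 ± 0.30; limma adjusted p = 0.00396) and 12.03-fold higher in HS (3.59 ± 0.30, adjusted p = 0.00168). This probe set was dim in mock, below the 40th percentile on all 3 mock arrays. It entered the test only through the vector arrays, so the filter favoured a rise. Its fold depends on the pseudocount: with 64 in place of 16 it was 6.07-fold (MC+HS) and 7.01-fold (HS). The probe set 1447927_at, which passed the filter on mock arrays too, read 11.17, 11.36 and 11.20 (MC+HS), 9.89, 11.65 and 11.89 (HS) and 7.41, 8.83 and 7.07 (mock). Here the differences were 3.47 ± 0.58 (limma adjusted p = 0.0432) and 3.37 ± 0.58 (adjusted p = 0.0404), and without HS replicate 1 the HS rise was 15.9-fold in place of 10.3-fold. The call of 1447927_at was lost without HS replicate 2, any single MC+HS array, mock replicate 1 or mock replicate 3 in both comparisons, and without HS replicate 3 in HS against mock, with limma adjusted p from 0.0955 to 0.223 in HS and from 0.0690 to 0.248 in MC+HS.

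Gbp7 has been linked in mouse macrophages to the delivery of NADPH oxidase parts to phagosomes. Its probe set 1425156_at read 10.21, 10.65 and 10.59 in the MC+HS mice, 10.92, 10.79 and 11.09 in the HS mice and 7.77, 8.81 and 8.01 in the mock mice. On this probe set HS replicate 1 stood level with the other HS arrays. It was 4.89-fold higher in MC+HS than in mock (2.29 ± 0.29; limma adjusted p = 0.0144) and 6.66-fold higher in HS (2.74 ± 0.29, adjusted p = 0.00454), and the MC+HS call was lost without any single MC+HS array, mock replicate 1 or mock replicate 3 (adjusted p from 0.0628 to 0.112). The other probe set, 1434380_at, read 10.74, 10.99 and 10.70 (MC+HS), 8.88, 11.08 and 11.43 (HS) and 8.11, 8.80 and 8.03 (mock). HS replicate 1 was there barely above mock replicate 2, and the differences of 2.49 ± 0.58 and 2.15 ± 0.58 did not pass (limma adjusted p = 0.173 and 0.271). With that array left out this probe set passed in both comparisons, 5.63-fold higher in MC+HS (2.49 ± 0.19; limma adjusted p = 5.17e-05) and 7.67-fold higher in HS (2.94 ± 0.21, adjusted p = 3.11e-05).

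Gbp8, in the chromosome 5 cluster, had a probe set whose signal was below the array median on every array. It read 6.52, 6.86 and 6.54 in the MC+HS mice, 6.57, 7.36 and 7.14 in the HS mice and 4.38, 4.99 and 4.20 in the mock mice. In deposited intensity these were 68.5 to 112 units (MC+HS), 78.9 to 206 (HS) and 1.47 to 18.6 (mock). The probe set lay above the 40th percentile on 1 MC+HS array, 2 HS arrays and no mock array, so it too passed the filter only through the vector groups. Gbp8 was 4.34-fold higher in MC+HS (2.12 ± 0.32; limma adjusted p = 0.0286) and 5.64-fold higher in HS (2.50 ± 0.32, adjusted p = 0.0110), but these folds were 14.2 and 19.2 with a pseudocount of 1 and 2.05 and 2.46 with a pseudocount of 64. The HS call held in 14 of 16 alternatives that tested it and was lost without mock replicate 1 (limma adjusted p = 0.0558) and with quantile normalization (adjusted p = 0.0510). The MC+HS call held in 9 of 16. It was lost without MC+HS replicate 1 or 3 or mock replicate 1 or 3 (limma adjusted p from 0.111 to 0.148), with a pseudocount of 1 (adjusted p = 0.0782), with quantile normalization (adjusted p = 0.0954) and with no median centring (adjusted p = 0.0574).

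**Figure D3:**
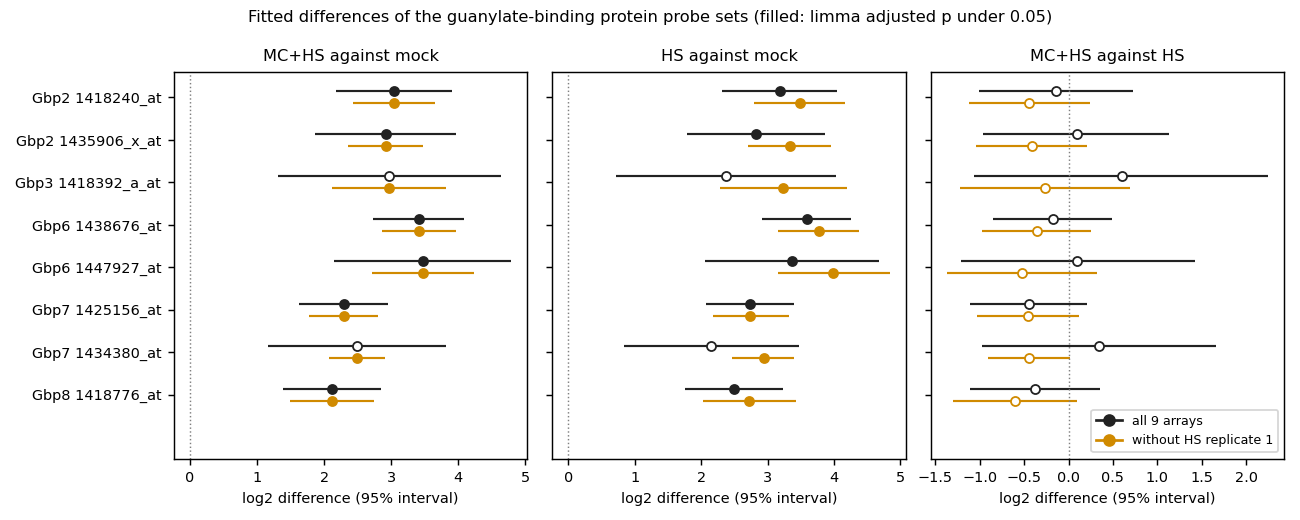
Fitted log2 differences of the 8 probe sets with 95% intervals in the 3 comparisons, with all 9 arrays (black) and without HS replicate 1 (orange); filled points passed at a limma adjusted p under 0.05. All differences from mock lie above 0, and all differences of MC+HS from HS lie below 0 once HS replicate 1 is left out. Over all probe sets tested the median of MC+HS against HS was 0.19 with all 9 arrays and -0.05 without HS replicate 1.

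The direct comparison of MC+HS with HS asked whether the way the vector was purified changed the response of these genes. None of the 8 probe sets passed (limma, smallest adjusted p = 0.728), nor did any at an unadjusted 0.05, and 0% of all probe sets tested were called. The groups overlapped for 7 of 8 probe sets. On Gbp7 probe set 1425156_at the MC+HS arrays lay below all HS arrays (8.02% of all probe sets had groups that did not overlap), with a difference of -0.45 (95% interval -1.11 to 0.21). The widest interval was that of Gbp3, at 0.60 (95% interval -1.06 to 2.25). With all arrays 4 of 8 differences were below 0, from -0.45 to 0.60. Without HS replicate 1 all 8 were below 0, from -0.60 for Gbp8 to -0.26 for Gbp3, and again none passed (limma, smallest adjusted p = 0.672, with 0 at an unadjusted 0.05 and 0.00357% of all probe sets called).

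The probe sets of the same gene parted most on HS replicate 1. Relative to the mock mean, Gbp2 on that array was 2.59 by 1418240_at and 1.83 by 1435906_x_at. For Gbp6 the changes were 3.23 by 1438676_at and 2.11 by 1447927_at. For Gbp7 they were 2.72 by 1425156_at and 0.57 by 1434380_at. On the MC+HS arrays and the other HS arrays the probe sets of a gene differed by 0.41 at most. On the mock arrays Gbp6 differed by up to 0.83, where 1438676_at was dim. Probes were not matched to transcripts here, and the part of probe position or RNA quality in this array was not tested.

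**Figure D4:**
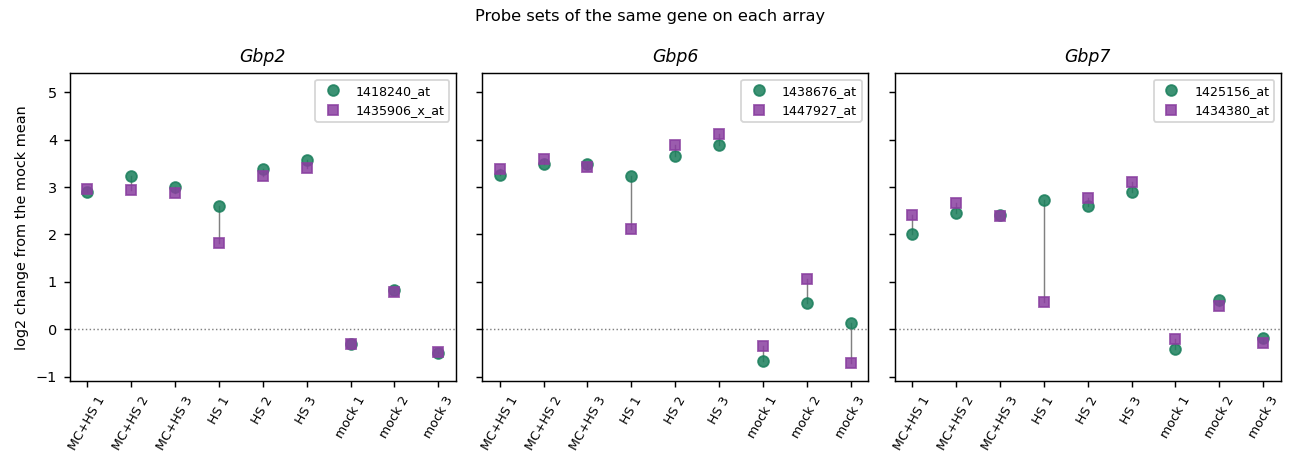
Log2 change from the mock mean on each array for the probe sets of Gbp2, Gbp6 and Gbp7, with a grey line joining probe sets of the same gene. The lines are longest on HS replicate 1, where the Gbp7 probe sets stand at 2.72 and 0.57.

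Mock replicate 2 had the highest mock signal for all 8 probe sets. It exceeded the mean of the other mock arrays by 0.70 (Gbp8) to 1.75 (Gbp3). Over all probe sets tested this departure had a median of 0.03 and ran from -0.33 at the 5th percentile to 0.42 at the 95th, and 1.93% reached 0.70. The vector arrays still lay above this array, apart from HS replicate 1 for Gbp3. Without mock replicate 2 the count of probe sets that passed was again 6 of 8 in both comparisons, against 0.670% (MC+HS) and 0.848% (HS) of all probe sets. Leaving out HS replicate 1 as well, a choice made after the values were seen, gave 8 of 8 in both comparisons with mock and 0 in MC+HS against HS (0.0036% called), with folds up to 16.03 (MC+HS) and 23.03 (HS), both for 1447927_at of Gbp6, against 3.03% and 3.53% of all probe sets called higher.

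The counts of calls moved with the arrays used, and so did the background. Over 21 alternatives the MC+HS and HS calls held in 16 and 19 for Gbp2 1418240_at, 13 and 12 for 1435906_x_at, 12 and 11 for Gbp6 1447927_at, and 14 and 20 for Gbp7 1425156_at. In HS against mock 3 of 8 passed without HS replicate 2 (0.242% of all probe sets called higher), 3 without HS replicate 3 (0.239%), 4 without MC+HS replicate 1 (0.453%), 3 without MC+HS replicate 2 (0.435%), 4 without MC+HS replicate 3 (0.403%), 2 without mock replicate 1 (0.243%) and 4 without mock replicate 3 (0.304%). In MC+HS against mock 3 of 8 passed without HS replicate 2 (0.303%) and 5 without HS replicate 3 (0.406%). It was 1 of 8 without MC+HS replicate 1 (0.103%), MC+HS replicate 2 (0.0357%), MC+HS replicate 3 (0.0856%), mock replicate 1 (0.0607%) or mock replicate 3 (0.118%), and that probe set was 1438676_at of Gbp6 each time. Gbp8 fell under the filter and was not tested without HS replicate 2, HS replicate 3 or MC+HS replicate 2. The same held with a filter at the 60th percentile and, in the comparisons with mock, with only the 6 arrays compared. In these settings 7 of the 8 probe sets were tested. Without the filter on dim signal 5 of 8 passed in each comparison (0.244% in MC+HS and 0.357% in HS), and with the replicate number as a block 4 of 8 did (0.333% and 0.513%). With no median centring 2 of 8 passed in MC+HS (0.237%). With only the 6 arrays compared, 1 of 7 tested passed in HS (0.0584%) and 7 of 7 in MC+HS. In that MC+HS fit 543 of 27453 probe sets were called higher. With array quality weights 1 of 8 passed in MC+HS against HS, where 23.1% of all probe sets were called.

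Few interferon signalling genes, which act upstream of the family, passed the test. Of 13 measured genes 1 rose in each comparison and none fell, with a median log2 difference of 0.24 in MC+HS and 0.30 in HS, beside -0.02 and -0.21 over all probe sets tested. For single genes 0.69% (MC+HS) and 0.893% (HS) of 13331 were called higher, and 0.0225% and 0.0375% lower. The gene that rose was Irf9, a subunit of the factor that binds interferon-stimulated response elements, by 1.82 ± 0.32 (MC+HS; limma adjusted p = 0.0494) and 1.90 ± 0.32 (HS, adjusted p = 0.0352). Stat2, its partner, differed by 1.32 ± 0.40 and 1.16 ± 0.40. Irf1, a transcription factor of the interferon gamma response, differed by 0.84 ± 0.28 and 0.73 ± 0.28. With all 9 arrays neither passed (limma adjusted p from 0.437 to 0.622). With HS replicate 1 left out Stat2 passed in both, by 1.32 ± 0.17 (MC+HS; limma adjusted p = 0.00129) and 1.67 ± 0.19 (HS, adjusted p = 0.000555). Irf1 still did not pass (limma adjusted p = 0.0569 and 0.0886). Without HS replicate 1 the numbers that rose were 2 (MC+HS) and 4 (HS) of 13, against 3.25% and 3.82% of genes called higher and 0.431% and 0.393% called lower. The interferon gamma gene itself did not pass the filter on dim signal.

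The immunity-related GTPases, smaller interferon-inducible GTPases that act beside guanylate-binding proteins at vacuoles, rose in 4 of 6 measured cases in MC+HS and 3 of 6 in HS, with median differences of 2.62 and 2.77. Iigp1, which is loaded onto parasite vacuoles, rose by 2.95 ± 0.33 (MC+HS; limma adjusted p = 0.00782) and 3.42 ± 0.33 (HS, adjusted p = 0.00287), Irgm1, a regulator of the other GTPases, by 2.29 ± 0.30 and 2.54 ± 0.30, and Irgm2 by 2.19 ± 0.29 and 2.30 ± 0.29. Ifi47, named because it makes up the fourth MC+HS call, rose there (limma adjusted p = 0.0453) and stood at 3.55 ± 0.72 in HS (adjusted p = 0.0802). The count was 5 of 6 in both without HS replicate 1. Among other large dynamin-related GTPases 1 of 7 rose in both comparisons, or 2 of 7 without HS replicate 1. It was the antiviral gene Mx1, by 3.46 ± 0.49 (MC+HS; limma adjusted p = 0.0203) and 3.47 ± 0.49 (HS, adjusted p = 0.0143). Mx2 read 9.97, 10.10 and 10.10 (MC+HS), 7.10, 10.16 and 10.52 (HS) and 5.29, 8.72 and 5.65 (mock), with the same low HS replicate 1 and high mock replicate 2 as Gbp3, and did not pass with all arrays. The dynamin gene Dnm2 differed by 0.23 ± 0.22 and 0.34 ± 0.22 and did not pass.

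Of the inflammasome and pyroptosis genes, which act downstream of guanylate-binding proteins, 1 of 9 rose in MC+HS and 2 of 9 in HS, with median differences of 0.77 and 0.75. Casp4, which encodes the lipopolysaccharide-sensing caspase-11, rose by 3.49 ± 0.27 (MC+HS; limma adjusted p = 0.00323) and 3.80 ± 0.27 (HS, adjusted p = 0.00123). Gsdmd, the pore protein cut by that caspase, rose by 1.65 ± 0.27 in HS (limma adjusted p = 0.0334) and stood at 1.13 ± 0.27 in MC+HS (adjusted p = 0.193). Casp8 differed by 0.86 ± 0.18 in both and did not pass (limma adjusted p = 0.107 and 0.0903). Without HS replicate 1, 4 (MC+HS) and 5 (HS) of 9 rose. The ubiquitin-like conjugation genes that position guanylate-binding proteins on vacuoles, such as Atg12 and Atg16l1, had 0 of 12 past the limma threshold in either comparison, and the prenylation and processing enzymes that add and trim lipid anchors, such as Fnta and Fntb, had 0 of 5. No member of either list passed an unadjusted 0.05, and without HS replicate 1 the counts were again 0, with 1 member of each list under an unadjusted 0.05 in MC+HS.

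**Figure D5:**
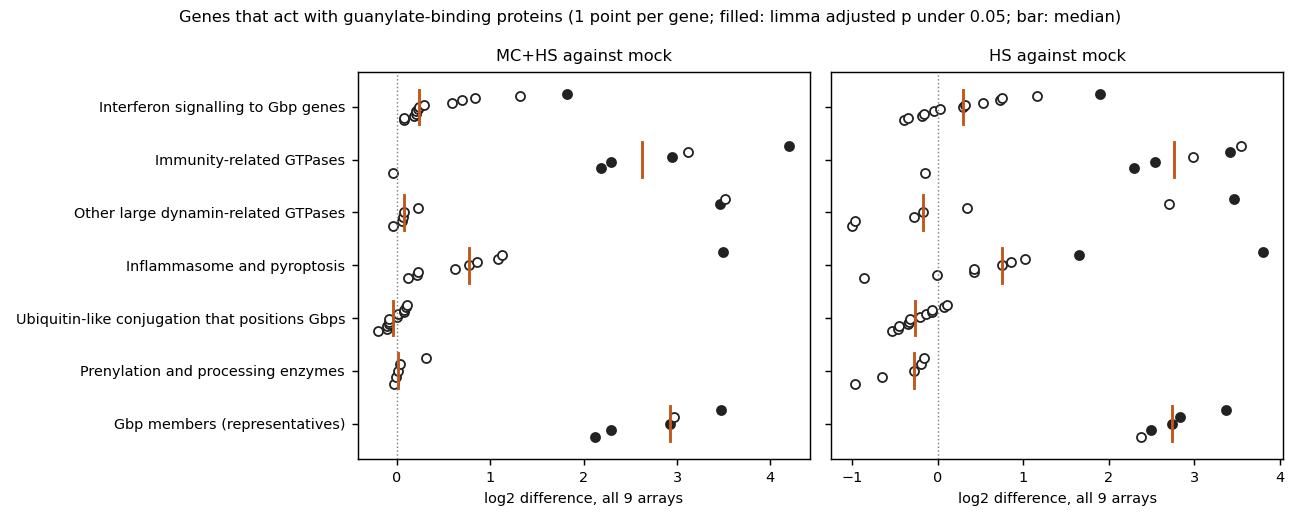
Log2 differences with all 9 arrays of genes that act with guanylate-binding proteins, 1 point per gene, in MC+HS against mock (left) and HS against mock (right), with orange bars at the list medians and filled points for a limma adjusted p under 0.05. The guanylate-binding protein genes, drawn at the bottom for 1 probe set each, lie between 2.12 and 3.47 on both sides, beside list medians of 2.62 and 2.77 for the immunity-related GTPases.

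The genes whose pattern over the 9 arrays was most like that of the family were found from the root mean square difference between each gene's log2 change from its mock mean and the median over the 5 members. That median was 2.57, 2.93 and 2.87 in the MC+HS mice, 2.04, 3.20 and 3.27 in the HS mice and -0.36, 0.78 and -0.47 in the mock mice. Of 13331 genes the nearest that were no members were Ddx60 at 0.17, Steap4 at 0.22, Ms4a6d at 0.24, Phf11d at 0.25, Ifi44l at 0.26 and Tap1 at 0.27, while the median over all genes was 2.44. The members themselves lay at 0.15 (Gbp2) to 0.55 (Gbp6). Ddx60, the closest, is a helicase gene known from antiviral responses and rose by 2.65 ± 0.47 in HS (limma adjusted p = 0.0462), while MC+HS stood at 2.70 ± 0.47 (adjusted p = 0.0506). Tap1, which encodes a subunit of the peptide transporter for MHC class I, rose by 2.99 ± 0.35 and 2.55 ± 0.35 (limma adjusted p = 0.00919 and 0.0124). These genes were picked on the same 9 arrays for a pattern that is high in the vector groups. Their rise over mock follows from that choice, and their p-values are no independent support.

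Some markers of cells that may enter the tissue rose as well. For single genes 0.69% (MC+HS) and 0.893% (HS) were called higher with all 9 arrays, and 3.25% and 3.82% without HS replicate 1. For infiltrating monocytes and macrophages 6 of 7 listed genes were measured and 1 rose in each comparison, or 4 of 6 without HS replicate 1. Their summed signal was 5216 to 5601 (MC+HS), 1988 to 7291 (HS) and 726.5 to 2108 (mock), and HS replicate 1, at 1988, lay below mock replicate 2, at 2108. For NK and T cells 5 of 8 were measured and 2 rose in each comparison (3 without HS replicate 1), with sums of 936.4 to 2062 (MC+HS), 1274 to 2734 (HS) and 231.2 to 338.8 (mock). For neutrophils 3 of 7 were measured and 1 (MC+HS) and 2 (HS) rose, or 2 in each without HS replicate 1, with sums of 333.2 to 487.2 (MC+HS), 529.9 to 794.4 (HS) and 176 to 245 (mock). These sums were higher in every vector array than in every mock array for the last 2 lists. With all 9 arrays Chil3 (2.97 in MC+HS and 3.14 in HS), Gzma (2.77 and 3.49) and Gzmb (4.44 and 4.81) rose. S100a9 rose in both as well (1.47 and 2.18), and S100a8 in HS only (1.27 in MC+HS and 2.19 in HS). Among the markers that did not pass, Ms4a4c stood at 3.26 and 3.04 and Nkg7 at 1.65 and 1.70. Others that did not pass were flat, such as F13a1 (0.04 in MC+HS and -0.15 in HS), Cd3e (-0.37 and 0.18) and Ngp (-0.05 and -0.20). The part of these cells in the guanylate-binding protein signals was not tested.

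Markers of resident cells were summed in the same way. The background of genes called higher also rose without HS replicate 1, from 0.69% to 3.25% (MC+HS) and from 0.893% to 3.82% (HS). That of genes called lower rose from 0.0225% to 0.431% and from 0.0375% to 0.393%. Of 6 endothelial genes none passed in either comparison and 3 rose in each without HS replicate 1, with sums of 5740 to 6646 (MC+HS), 3108 to 7385 (HS) and 3452 to 4049 (mock). Of 6 measured microglial genes 1 fell in MC+HS and none passed in HS, or 2 fell in each without HS replicate 1, with sums of 11710 to 14210 (MC+HS), 9345 to 13730 (HS) and 12360 to 14750 (mock). Of 6 astrocyte genes none passed, or 2 (MC+HS) and 3 (HS) rose without HS replicate 1, with sums of 27500 to 32070 (MC+HS), 8707 to 34370 (HS) and 25070 to 27990 (mock). None of the oligodendrocyte, neuronal or medium spiny neuron genes passed with or without that array. No measured marker was at an intensity of 0 on any array, and Cd3g, Cd2, Ncr1, Camp and Mmp8 did not pass the filter. Whether these cells contribute to the differences was not tested.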

How the data were processed

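Labelled RNA from 9 arrays was analysed, 3 per group. The deposited table gives the authors' intensity per probe set on a linear scale, and the submitters' processing notes name GCOS 1.4.0.036. Summary, scaling and genome build are not given in the sources used here, and no detection calls were used. Signals were turned into log2(signal + 16) and array medians were aligned, with shifts up to 0.66 (HS replicate 3). The 64 controls were left out, as were probe sets not above the 40th percentile of their array on at least 3 arrays. Before this filter 34945 probe sets carried 1 symbol and 932 several; 34741 of those with 1 symbol matched a RefSeq gene table (GRCm38.p6) by Entrez identifier, and 0 symbols changed.

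Differences were fitted with limma 3.58.1 (R 4.3.3, statmod 1.5.0; lmFit and eBayes, trend on) over the 9 arrays, group being the only term. P-values were two-sided, Benjamini-Hochberg adjusted over all 28257 probe sets and called under 0.05; ± is the standard error of this fit. The code was tested on simulated data whose spread was taken from the mock and MC+HS arrays. The spread among the HS arrays was not part of that test. The number of arrays limits the precision: the median 95% interval of a difference from mock reached 0.603 to either side.

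Members and the 6 pathway and 9 marker lists were chosen with earlier results of these data known. The naming rule took all member probe sets, up to 3 genes per list by smallest p, and the 6 genes most like the family. The probe set with the highest mean stood for a gene. Alternatives were other pseudocounts, filters, normalizations and variance models, the 6 arrays compared alone, replicate number as a block and each array left out.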

Additional observations from a re-analysis of the deposited data

How the results depend on the processing

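Under all 21 alternatives the 326 member differences from mock that could be computed were above 0. The count of probe sets called higher in MC+HS against mock was 6 of 8 and fell to 2 with no median centring. It was 7 of 7 tested with only the 6 arrays compared, where 543 of 27453 probe sets were called higher. With 1 array left out it ranged from 1 to 8. It was 1 without any single MC+HS array, mock replicate 1 or mock replicate 3, 3 without HS replicate 2 and 8 without HS replicate 1. The count in HS against mock was 6, fell to 1 (Gbp6 1438676_at, limma adjusted p = 0.0419) with only the 6 arrays compared, and ranged from 2 to 8 with 1 array left out, at 2 without mock replicate 1, 3 without HS replicate 2, HS replicate 3 or MC+HS replicate 2, and 8 without HS replicate 1. Gbp6 1438676_at passed under all 21 alternatives in both comparisons (highest limma adjusted p = 0.0431 and 0.0419). It was dim on all mock arrays, and where the filter was used it entered only through the vector arrays. The filter then favoured a rise, so these calls are weak evidence of stability. Without the filter on dim signal 5 of 8 passed in each. In MC+HS against HS the count was 0, and 1 (Gbp8, -0.66, adjusted p = 0.0241) with array quality weights, whose estimate stopped before convergence and called 2498 probe sets higher and 4038 lower. The sign of that contrast was not stable: with array quality weights Gbp2 1435906_x_at, Gbp3, Gbp6 1447927_at and Gbp7 1434380_at stood at -0.34, -0.10, -0.37 and -0.24, and without HS replicate 1 and mock replicate 2 at -0.41, -0.26, -0.52 and -0.45, against 0.09, 0.60, 0.10 and 0.34 in the fit reported. Quantile normalization gave Gbp2 1435906_x_at -0.29 and Gbp6 1447927_at -0.27, and no median centring gave them -0.19 and -0.17. With 1 array left out, these contrasts ranged from -0.44 to 0.06 (Gbp2 1418240_at), -0.41 to 0.38 (1435906_x_at), -0.26 to 1.04 (Gbp3), -0.52 to 0.48 (Gbp6 1447927_at) and -0.45 to 0.82 (Gbp7 1434380_at). The causes were not tested. With the replicate number as a block 4 of 8 probe sets passed in each comparison with mock and 0 in MC+HS against HS. Same-numbered arrays of different groups had deviations that correlated from -0.168 to 0.287, and 4 of 9 arrays correlated best with their own number. These few weak correlations cannot decide whether the numbers pair samples. Gbp8 could not be tested where fewer arrays or a cut at the 60th percentile left it under the filter. Signals near background limit Gbp8 and Gbp6 1438676_at, whose folds depend on the pseudocount.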

Other observations

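Gbp2b, a further guanylate-binding protein gene of the chromosome 3 cluster that lies between Gbp3 and Gbp2, was outside the rule. Its probe set read 11.21, 11.29 and 11.16 in the MC+HS mice, 11.69, 11.76 and 11.97 in the HS mice and 7.89, 8.97 and 8.15 in the mock mice. It was 7.39-fold higher in MC+HS than in mock (log2 difference 2.89 ± 0.29; limma adjusted p = 0.00649) and 11.1-fold higher in HS (3.48 ± 0.29, adjusted p = 0.00176). The MC+HS arrays lay below all HS arrays, with a log2 difference of -0.59 ± 0.29, which did not pass (limma adjusted p = 0.728). HS replicate 1 differed by -0.17 from the mean of the other HS arrays on this probe set, and mock replicate 2 stood 0.95 above the mean of the other mock arrays, as it did for the members.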
